A study of Rattus norvegicus with 45 samples.

Results

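The gene set described here comprises 42 genes of the extracellular matrix and of the cells that make or border it in brain: laminin chains, basement membrane and fibrillar collagens, matrix glycoproteins, small proteoglycans, matrix receptors, fibroblast genes and pericyte genes. Its members are a fixed list of symbols, taken with no threshold on the measured values but chosen with earlier results of these data known. All 42 were present among the 40643 genes of both deposited count tables. All 42 also passed the filter on low counts in females, in males and in both sexes together. RNA was measured by 3′ Tag-seq. In this method only a stretch close to the transcript's 3′ end is read, so counts follow transcript number and are not scaled by gene length. The study asked, per its title and design text, how bisphenol exposure before birth and the care given by the mother after birth relate to gene expression in the medial preoptic area, the part of the hypothalamus best known for its role in parental and sexual behaviour.

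The tissue came from rat pups on postnatal day 10, female or male, and the labels name no strain and do not say whether pups were pooled. The dams were dosed from gestation day 8 until birth with BPA at 50 µg/kg per day (6 female and 5 male libraries), with a mixture of BPA, BPS and BPF in equal parts at 50 µg/kg per day (6 female and 6 male) or at 150 µg/kg per day (5 female and 6 male), or with corn oil, the vehicle (5 female and 6 male). BPA is bisphenol A, and BPS and BPF are its replacements bisphenol S and bisphenol F. The number in a library's name was read as its litter, since libraries that share it carry the same licking/grooming value. The 45 libraries then came from 24 litters, of which 21 gave a library of each sex, so the females and males of an exposure are largely littermates. Dams were treated as pairs sharing a cage, and which litters shared a cage is not given in the labels, so p-values over pups leave a shared cage out of account. Licking/grooming, the licking and grooming of pups by the dam, was observed on postnatal days 1 to 5 and ran from 91.9 to 547 per litter, in a unit that the labels do not give.

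The extracellular matrix of brain has distinct compartments. Basement membranes, sheets of laminin and collagen IV joined by nidogens, surround blood vessels and line the brain surface, and pericytes sit within the vascular one. Fibrillar collagens, collagen VI and small leucine-rich proteoglycans are made chiefly by fibroblasts of the meninges and of the spaces around larger vessels, while brain tissue between vessels is poor in fibrillar collagen.

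Promoter windows from 250 bases before to 50 bases after the gene start were read from RefSeq on the rat assembly GRCr8 for 29 of the 42 members. They are shown for the 4 members with the lowest p-values of the female analysis below for which RefSeq gave a window (Tgfbi, Lama2, Cped1 and Ranbp3l), and for the collagen IV pair Col4a1 and Col4a2, a head-to-head gene pair whose levels varied little. Capitals mark matches on either strand to any of 5 motifs. These were the TATA box as TATAAA, the CCAAT box under its own letters, the GC box as GGGCGG, a site of the AP-1 type as TGANTCA and a site of the TEAD type as GGAATG. None of the capital stretches below overlaps another.
Tgfbi: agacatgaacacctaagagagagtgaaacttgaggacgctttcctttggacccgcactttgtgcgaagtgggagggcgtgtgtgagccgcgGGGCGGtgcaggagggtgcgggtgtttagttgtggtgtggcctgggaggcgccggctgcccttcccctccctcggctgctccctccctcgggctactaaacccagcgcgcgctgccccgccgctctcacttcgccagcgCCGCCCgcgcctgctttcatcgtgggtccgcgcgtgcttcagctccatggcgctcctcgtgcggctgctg
Lama2: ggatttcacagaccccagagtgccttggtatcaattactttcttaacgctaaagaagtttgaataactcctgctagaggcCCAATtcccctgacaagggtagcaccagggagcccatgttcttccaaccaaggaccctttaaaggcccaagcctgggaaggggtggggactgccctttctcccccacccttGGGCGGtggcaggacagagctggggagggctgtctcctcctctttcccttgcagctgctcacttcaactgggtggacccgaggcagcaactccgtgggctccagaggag
Cped1: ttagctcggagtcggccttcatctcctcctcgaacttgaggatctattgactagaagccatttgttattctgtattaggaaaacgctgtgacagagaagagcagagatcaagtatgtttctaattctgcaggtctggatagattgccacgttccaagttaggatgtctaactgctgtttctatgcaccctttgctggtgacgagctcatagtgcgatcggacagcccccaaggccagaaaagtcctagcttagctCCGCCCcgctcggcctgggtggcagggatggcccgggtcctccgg
Ranbp3l: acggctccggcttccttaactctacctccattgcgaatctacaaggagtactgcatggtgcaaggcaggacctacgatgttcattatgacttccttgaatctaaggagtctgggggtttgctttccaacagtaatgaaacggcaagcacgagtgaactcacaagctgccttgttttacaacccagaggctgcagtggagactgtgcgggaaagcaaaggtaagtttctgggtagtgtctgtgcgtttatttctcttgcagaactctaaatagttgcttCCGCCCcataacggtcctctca
Col4a1: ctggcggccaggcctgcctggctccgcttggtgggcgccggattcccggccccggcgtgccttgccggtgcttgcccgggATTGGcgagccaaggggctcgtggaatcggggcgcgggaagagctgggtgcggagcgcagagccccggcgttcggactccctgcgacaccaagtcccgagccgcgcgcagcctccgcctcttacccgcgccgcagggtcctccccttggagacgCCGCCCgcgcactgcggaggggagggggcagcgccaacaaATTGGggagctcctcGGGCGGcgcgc
Col4a2: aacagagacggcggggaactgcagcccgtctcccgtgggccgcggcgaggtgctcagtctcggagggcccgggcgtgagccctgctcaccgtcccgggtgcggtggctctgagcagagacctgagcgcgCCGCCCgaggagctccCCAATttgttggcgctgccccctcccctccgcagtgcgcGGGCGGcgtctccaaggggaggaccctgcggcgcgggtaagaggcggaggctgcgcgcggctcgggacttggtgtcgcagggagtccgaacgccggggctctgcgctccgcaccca

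The windows lie at chr17:7990064-7990363 on the minus strand for Tgfbi, chr1:19491896-19492195 on the plus strand for Lama2, chr4:51482247-51482546 on the plus strand for Cped1 and chr2:59784820-59785119 on the plus strand for Ranbp3l. The Col4a1 window, chr16:84885347-84885646 on the plus strand, and the Col4a2 window, chr16:84885471-84885770 on the minus strand, share 176 bases, since the starts of the genes are 77 bases apart and point away from each other. A GC box was found in 18 of the 29 member windows (62.1%), against 33.1% of all 33469 rat windows. The GC content of the 29 member windows ran from 45.7% (Lama1) to 76.0% (Aldh1a2), and the median over all rat windows was 51.7%. CCAAT was found in 37.9% of member windows and 37.5% of all, TATAAA in 10.3% and 14.2%, GGAATG in 13.8% and 14.2%, and TGANTCA in 1 member window (3.45%) and 7.33% of all. These are matches of letters only, with no measurement of binding.

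The total per library lay between 4397460 and 7223180 counts for females, and for males between 4747460 and 6740040 counts. Levels below are CPM, counts scaled to library size with factors from the trimmed mean of M-values over the 45 libraries. Markers of the preoptic area summed to 69.8 to 151 CPM, with Gal at 0 in 1 library and the other 7 genes of that list above 0 in every library, and markers of the adjoining striatum summed to 432 to 1782 CPM. Meningeal fibroblast markers, a list of 16 genes of which 15 were in the tables and none is a member, summed to 115 to 372 CPM. Of those 15, Itih2 was at 0 in 12 libraries and Twist1 in 1 library. In bulk tissue, fewer cells of a type and less RNA per cell cannot be told apart.

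The members spanned more than 2 orders of magnitude in mean level. Sparc, a matricellular glycoprotein that binds collagen and is also made by glia and endothelium, had the highest mean, 470.6 CPM, with libraries between 381 and 613 CPM. Tgfbi, a secreted matrix protein induced by TGF-beta that binds collagens and integrins, had the lowest mean, 2.18 CPM, and stood between 0.416 and 4.85 CPM over the libraries, on 3 to 28 counts per library. Counting error is therefore large for Tgfbi, and it is small for Sparc, whose lowest library had 2070 counts.

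The members differed in how much they varied between libraries. The spread within exposure and sex groups, as an SD on the log2 CPM scale, had a median of 0.16 over Col4a1, Col4a2, Nid1 and Nid2, and 0.23 over the 7 laminin chains. It was 0.43 over the 6 fibrillar collagens, 0.48 over the 3 collagen VI chains and 0.53 over the small proteoglycans Dcn, Lum, Bgn and Ogn. The roles overlapped: Nid2 had an SD of 0.29 and Lama2 of 0.36, against 0.21 for the fibrillar chain Col5a2 and 0.28 for Col11a1. The pericyte genes Pdgfrb, Rgs5, Kcnj8 and Abcc9 had a median SD of 0.24. Over all 42 members the median was 0.35, against 0.20 over the 16678 genes within the members' range of mean CPM. Col3a1, the chain of type III collagen, ran from 5.55 to 47.8 CPM, an 8.61-fold range, whereas Col4a2 ran from 57.0 to 95.1 CPM, a 1.67-fold range. Within the laminins, Lama2, the alpha chain of the laminin found around vessels and muscle fibres, had the widest fold range (15.4 to 46.4 CPM, 3.01-fold). Lamc1, the gamma chain common to most laminins, had one of the narrower fold ranges (51.4 to 90.1 CPM, 1.75-fold).

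**Figure D1:**
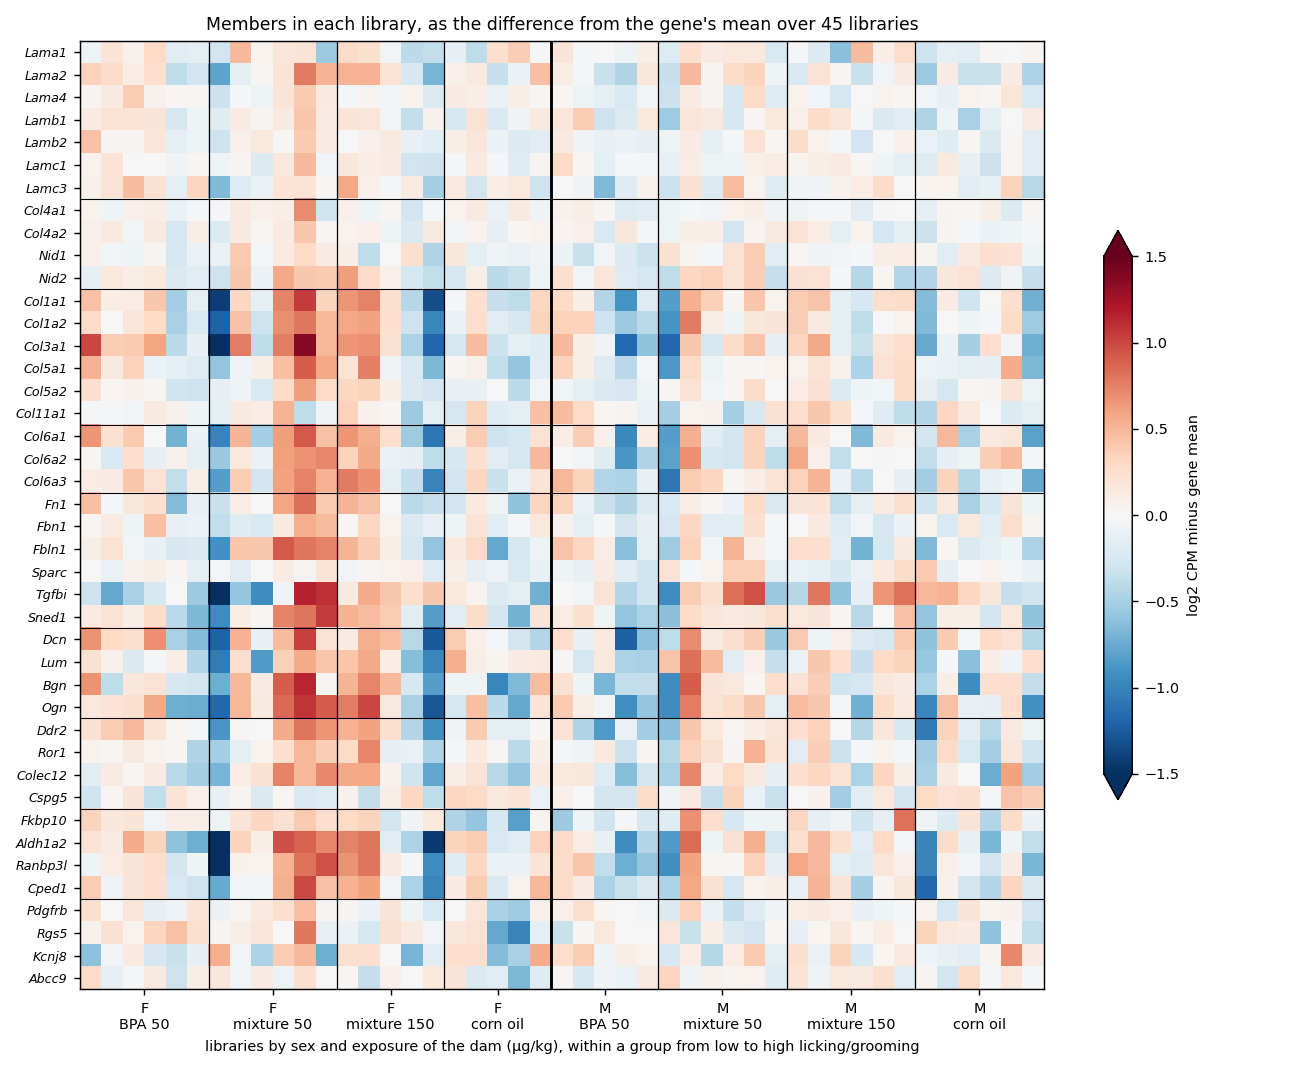
Level of each of the 42 members in each of the 45 libraries, as log2 CPM minus the gene's mean over all libraries (colour), with members grouped by role from top to bottom and libraries by sex and exposure, within a group from low to high licking/grooming of the dam. The collagen, proteoglycan and fibroblast rows change colour together from library to library, whereas Col4a1, Col4a2 and Nid1 stay pale.

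Members of the fibroblast matrix also varied together. After removal of the group means, Pearson's r between members over the 45 libraries had a median of 0.443, against -0.000636 between genes within the same range of mean CPM. The 2 chains of type I collagen, Col1a1 and Col1a2, had the highest r, 0.957. Osteoglycin (Ogn), a small proteoglycan, had r of 0.937 with Col1a1 and of 0.931 with Aldh1a2, a retinoic acid synthesising enzyme of the meninges. The median r was 0.716 within the fibrillar collagens and 0.155 between them and the pericyte genes. At the other end, Sparc and Col4a2 had an r of -0.526. The libraries share depth and tissue composition, and these values are descriptions.

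Many members also varied with markers of meningeal fibroblasts and of vessel cells, and some with those of the adjoining striatum. For meningeal fibroblasts the median r of a role's members with the mean log2 CPM of the marker list was 0.864 for the fibrillar collagens, 0.883 for collagen VI, 0.786 for the small proteoglycans and 0.884 for the group of Fkbp10, Aldh1a2, Ranbp3l and Cped1. Within that group Fkbp10 had 0.26, and Aldh1a2, Ranbp3l and Cped1 had 0.93, 0.93 and 0.84. The median was 0.590 for the laminins, 0.333 for the basement membrane collagens and nidogens and 0.0840 for the pericyte genes. With brain endothelium markers the median r was 0.732 for the fibrillar collagens, 0.741 for collagen VI, 0.705 for the small proteoglycans, 0.632 for the laminins and 0.485 for the basement membrane collagens and nidogens. With pericyte and smooth muscle markers it was 0.680 for the fibrillar collagens, 0.555 for collagen VI and 0.677 for the small proteoglycans. For the pericyte genes it was 0.254, the lowest of any role, with 0.120 for Abcc9, 0.166 for Rgs5, 0.343 for Kcnj8 and 0.465 for Pdgfrb. With neuron markers the fibrillar collagens had a median r of -0.591. It was 0.503 with striatum, -0.494 with preoptic area, 0.500 with red blood cell and 0.473 with microglia and macrophage markers. Lamb1, Col11a1 and Col4a2 had r of 0.764, 0.762 and 0.719 with striatum markers, against 0.542, 0.427 and 0.366 with meningeal ones. Sparc had -0.613 with striatum markers. Littermates resembled each other: over the 21 litters with a pup of each sex, the correlation of the female's and the male's level, group means removed, had a median of 0.306 over the members and was above 0 for 39 of 42, against a median of 0.113 over all 19026 genes tested, of which 12653 were above 0.

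**Figure D2:**
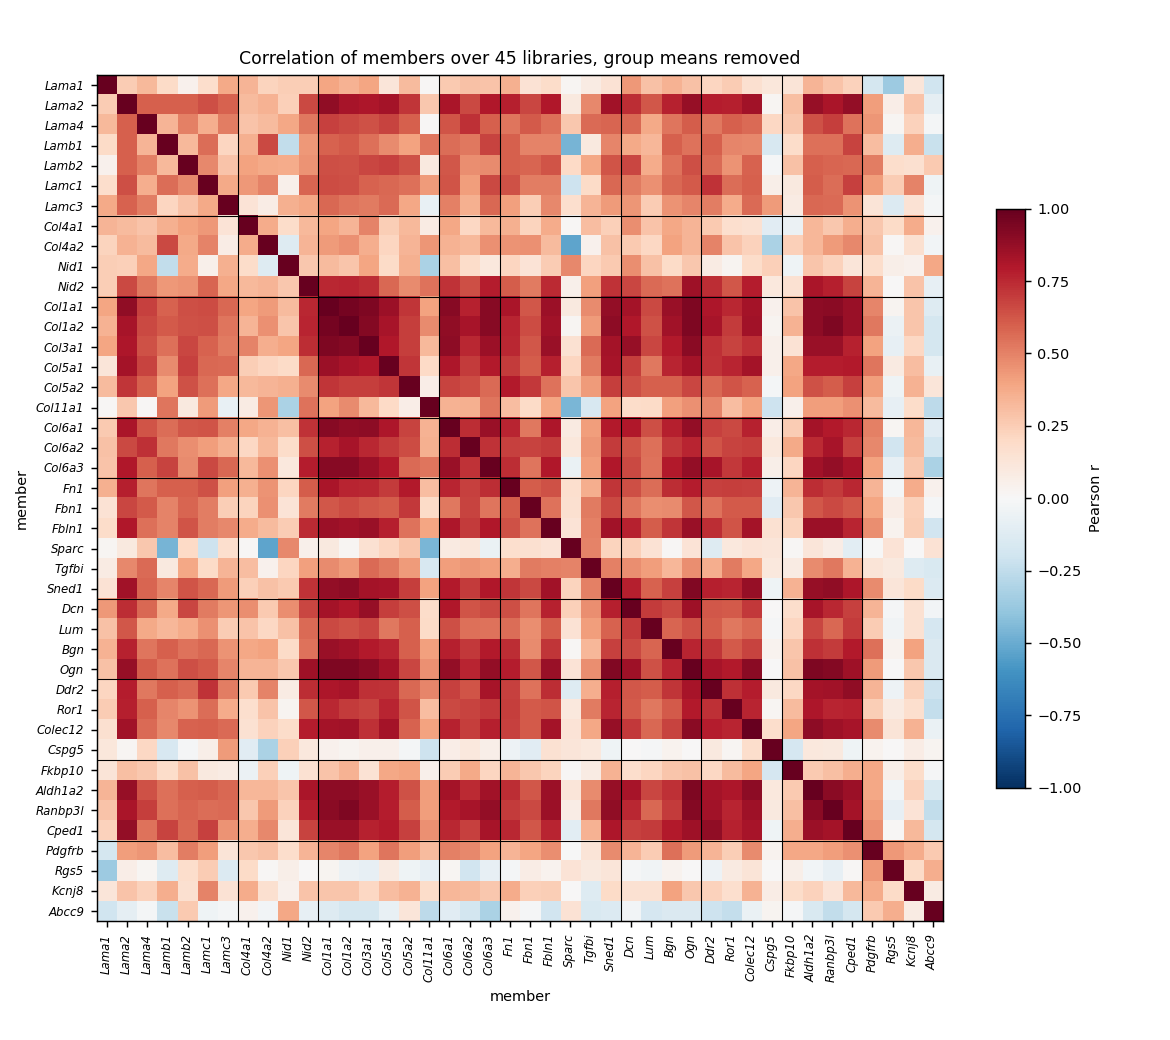
Pearson's r between each pair of the 42 members over 45 libraries after removal of the means of the exposure and sex groups (colour, red above 0 and blue below 0), with members in the order of their roles. Most fibrillar collagens, collagen VI chains, small proteoglycans and fibroblast genes have high r with each other, up to 0.957 for Col1a1 with Col1a2, and Col11a1, Sparc, Cspg5, Fkbp10 and the pericyte genes are paler.

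No member passed the threshold of an adjusted p of 0.05 in any of the 12 comparisons between exposures (6 in each sex), nor did any other gene (edgeR's quasi-likelihood test with Benjamini-Hochberg adjustment over 18354 genes in females and 18426 in males). What follows therefore gives counts at an unadjusted p under 0.05 and values. The comparisons with corn oil share the same oil libraries. Since members varied together (median r of 0.443), counts of members are not counts of independent observations.

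In females of the 50 µg/kg mixture, 38 of the 42 members had a log2 difference above 0 from corn oil, against 52% of all genes, and the median difference was 0.27. At an unadjusted p under 0.05, 7 members were higher and 1 lower, where 2.18% of all genes were higher, 2.68% lower and 4.85% either. The member that was lower was Cspg5. The 7 that were higher were the collagen chaperone Fkbp10, the nidogen Nid2, the fibulin Fbln1, the fibrillar collagen chain Col5a2 and the pericyte genes Pdgfrb, Rgs5 and Abcc9. In females of the 150 µg/kg mixture, 30 members lay above 0 against 50.9% of all genes, with a median of 0.10, and 1 (Fkbp10) was past that mark against 3.08% of all genes. In BPA females 28 lay above 0 against 49.7% of all genes, with a median of 0.07, and 2 (Fkbp10 and Rgs5) were past it against 3.63%. The lowest p toward lower values, beside Cspg5, went to Kcnj8, the other subunit of the pericyte potassium channel, for BPA (-0.27 ± 0.28), to Lum for the 50 µg/kg mixture (-0.14 ± 0.27) and to Lama4, a laminin chain of vessels, for the 150 µg/kg mixture (-0.08 ± 0.10), all within 1 SE or less of 0.

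Fkbp10, a prolyl isomerase of the endoplasmic reticulum that assists collagen folding, had the lowest p of the members in each of the 3 female comparisons with oil. Its level had a lowest, median and highest value of 8.09, 9.24 and 10.7 CPM in BPA females and of 7.91, 9.93 and 11.1 CPM in females of the 50 µg/kg mixture. It was 10.4, 9.40, 6.86, 8.02 and 10.6 CPM in the 5 females of the 150 µg/kg mixture, against 7.04, 4.60, 5.46, 8.60 and 6.03 CPM in the 5 corn oil females. Every library of the 3 exposed groups was above the oil mean of 6.35 ± 1.54 CPM (SD, n = 5), and BPA and the 50 µg/kg mixture overlapped with oil through the oil library at 8.60 CPM. The 150 µg/kg mixture overlapped with it through the oil libraries at 8.60 and 7.04 CPM. The log2 differences from oil were 0.55 ± 0.15 for BPA (SE, 95% interval 0.25 to 0.86), 0.62 ± 0.15 for the 50 µg/kg mixture (0.32 to 0.93) and 0.51 ± 0.16 for the 150 µg/kg mixture (0.19 to 0.83). By edgeR's quasi-likelihood test the adjusted p was 0.971 for the 50 µg/kg mixture and 0.9999 and 0.9998 for BPA and the 150 µg/kg mixture. In males the same differences were -0.19, 0.15 and 0.20. The difference between the sexes in the BPA effect on Fkbp10, female minus male, was 0.75 ± 0.26 (edgeR, adjusted p = 0.617).

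Cspg5, or neuroglycan C, a transmembrane chondroitin sulfate proteoglycan of neural cells, ran the other way from most members. In females its log2 differences from oil were -0.19 for BPA, -0.29 ± 0.12 for the 50 µg/kg mixture and -0.21 for the 150 µg/kg mixture. In males they were -0.28 ± 0.13, -0.30 ± 0.13 and -0.37 ± 0.13 in the same order, each at an unadjusted p under 0.05. Lowest, median and highest levels were 136, 185 and 220 CPM in males of the 150 µg/kg mixture, against 192, 237 and 265 CPM in corn oil males. All 6 libraries of the 150 µg/kg mixture lay below the oil mean of 235 CPM, and the groups overlapped. The adjusted p-values of these comparisons were between 0.437 and 0.9999.

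Among the pericyte genes of females, Rgs5, a regulator of G-protein signalling that marks pericytes, had log2 differences from oil of 0.49 ± 0.21 for BPA and 0.46 ± 0.20 for the 50 µg/kg mixture. Pdgfrb, the receptor that recruits pericytes, had 0.27 ± 0.13 and Abcc9, a subunit of their potassium channel, had 0.27 ± 0.13 for the 50 µg/kg mixture. Nid2, which links laminin to collagen IV, had 0.45 ± 0.17 and Fbln1 had 0.59 ± 0.26 in the same comparison. The adjusted p was 0.971 or more for all of these. Rgs5 was 3.15, 2.65, 6.59, 5.09 and 6.41 CPM in corn oil females, in order of replicate. Pdgfrb was 13.2, 12.7, 21.1, 19.7 and 18.7 CPM in the same order. Oil replicates 1 and 2 were thus lowest for both genes, and the other oil libraries overlapped with the exposed groups. The mean log2 CPM of the pericyte genes was 2.58 and 2.43 in oil replicates 1 and 2. In replicates 3 to 5 it was 3.18 to 3.25, against 3.04 to 3.20 in BPA females.

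**Figure D3:**
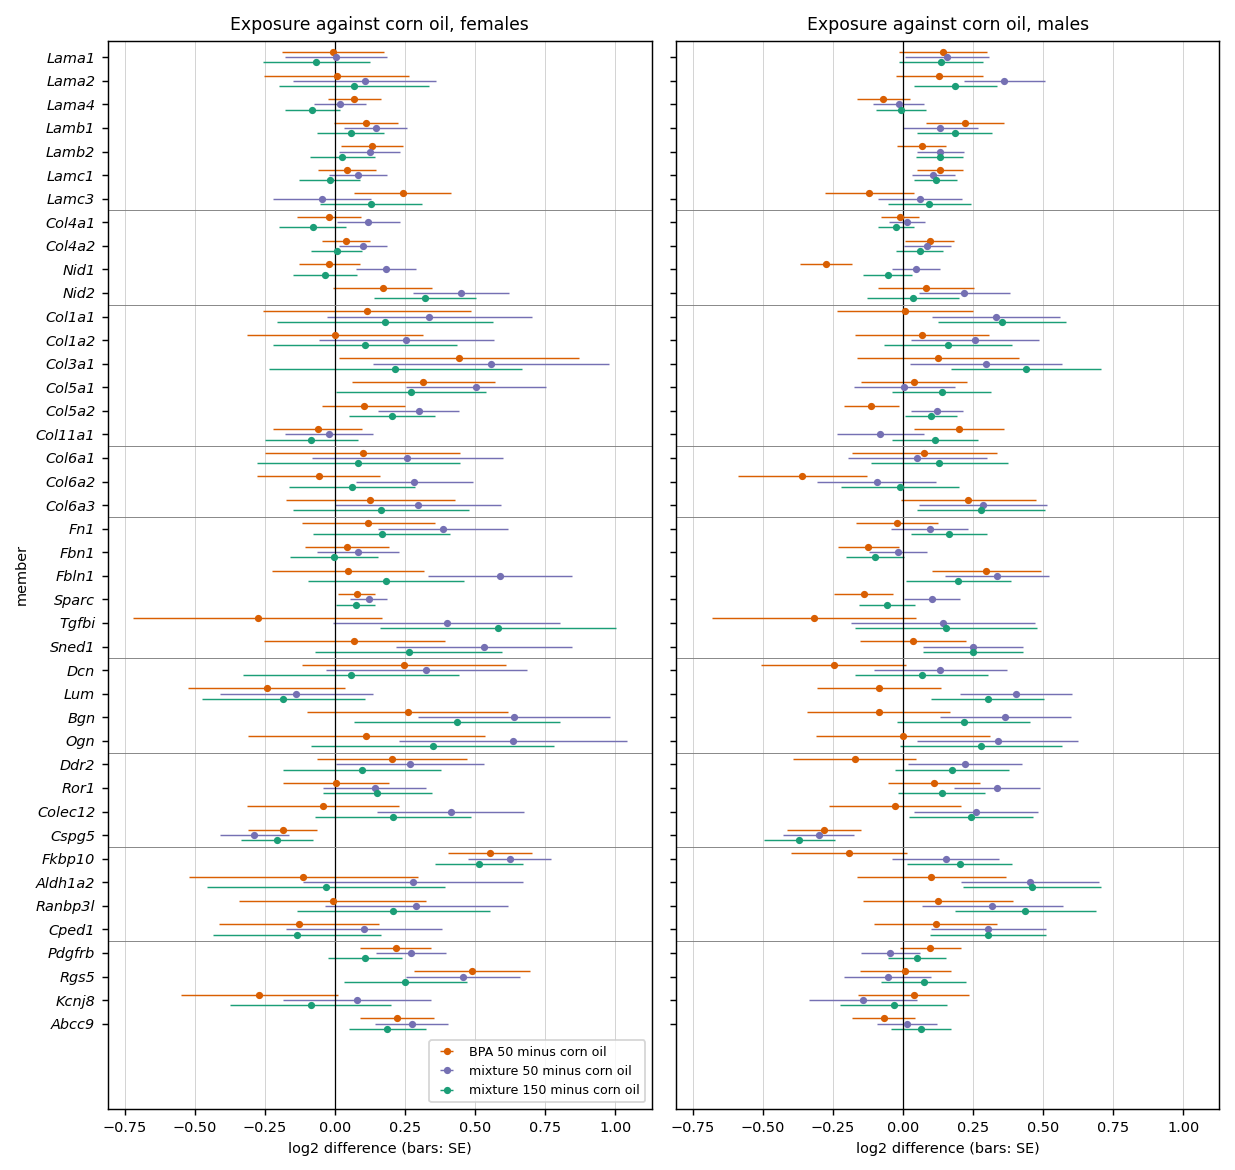
Log2 difference of each member (points, bars are the SE) between each exposure and corn oil, in females (left) and males (right), with members grouped by role from top to bottom. In females of the 50 µg/kg mixture 38 of 42 points lie right of 0; Fkbp10 lies at 0.51 to 0.62 in all 3 female comparisons and Cspg5 left of 0 in all 6.

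Meningeal fibroblast markers stood higher in the same females: all 13 tested markers had a log2 difference above 0 for the 50 µg/kg mixture against oil, with a median of 0.45, and 4 were past an unadjusted p of 0.05. Their summed level ran from 122 to 372 CPM in the 50 µg/kg mixture and from 184 to 273 CPM in corn oil females. With the mean of these markers as a covariate, an alternative added after the data had been seen, the median member difference from oil in females was 0.04 for BPA, 0.01 for the 50 µg/kg mixture and -0.04 for the 150 µg/kg mixture. The count of members above 0 was then 21 of 42 for the 50 µg/kg mixture. Members that vary with the marker mean lose much of their own variation in such a fit, so it cannot tell why they differed. The median for the 150 µg/kg mixture, 0.10, ran from 0.0027 without replicate 5 (22 above 0) to 0.26 without replicate 2 of that mixture (36 above 0). The median for BPA, 0.07, ran from 0.03 without replicate 2 to 0.10 without replicate 3 of corn oil. The 50 µg/kg mixture's median of 0.27 also moved with single libraries, from 0.13 without replicate 3 to 0.39 without replicate 5 of the 50 µg/kg mixture.

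In males, 34 members lay above 0 for the 50 µg/kg mixture and 34 for the 150 µg/kg mixture, against 50.8% of all genes in each, with medians of 0.13 and 0.14, and 24 lay above 0 for BPA, against 50%, with a median of 0.02. At an unadjusted p under 0.05 there were 3, 1 and 2 members in that order, against 3.47%, 4.09% and 11.3% of all genes. Lama2 had a log2 difference of 0.36 ± 0.15 and Ror1, a Wnt5a receptor, of 0.34 ± 0.15 for the 50 µg/kg mixture. Nid1, the other nidogen, had -0.28 ± 0.09 for BPA (edgeR, adjusted p = 0.361), with levels of 26.6, 26.4, 31.4, 29.1 and 32.4 CPM in the 5 BPA males and 29.8, 35.8 and 39.9 CPM as lowest, median and highest in oil. All 5 BPA males were below the oil mean, and the groups overlapped. The laminin chains Lamc1 and Lamb1 had 0.13 ± 0.08 and 0.22 ± 0.14 for BPA. Striatum markers, with which Lamb1 had an r of 0.764, summed to a median of 1443 CPM in BPA males and 825 CPM in corn oil males, and their part was not tested. Kcnj8 had -0.14 ± 0.19 for the 50 µg/kg mixture and Fbn1, the microfibril protein fibrillin, had -0.10 ± 0.10 for the 150 µg/kg mixture. Aldh1a2 had 0.46 ± 0.25 and Ranbp3l, a Ran-binding protein that exports Smads from the nucleus in mouse cells, had 0.44 ± 0.25 for the 150 µg/kg mixture. All 12 tested meningeal markers had a difference above 0 there, with a median of 0.29, and with their mean as a covariate the member medians were -0.05 for BPA, 0.04 and 0.01 for the 50 and 150 µg/kg mixtures. With 1 library left out they ran from -0.06 without replicate 3 of BPA to 0.10 without replicate 2 of corn oil for BPA. They ran from 0.09 without replicate 5 to 0.20 without replicate 3 for the 50 µg/kg mixture, and from 0.10 without replicate 5 of corn oil to 0.19 without replicate 3 of the mixture for the 150 µg/kg mixture.

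The exposures were then set against each other. At equal total dose, the 50 µg/kg mixture against BPA, 37 of 42 members lay above 0 in females and 32 in males, against 51.1% and 50.4% of all genes, and 1 and 4 were at an unadjusted p under 0.05, against 4.21% and 12.4% of all genes. The median member difference was 0.14 in females and 0.18 in males. With the meningeal markers as a covariate it was -0.05 in females, with 15 of 42 above 0, and 0.06 in males, with 30 above 0. With 1 library left out it ran in females from 0.027 without replicate 3 (24 above 0) to 0.26 without replicate 5 of the 50 µg/kg mixture (40 above 0). In males it ran from 0.06 without replicate 5 of that mixture to 0.24 without replicate 3 of BPA. Fbln1 had 0.54 ± 0.25 and Lamc3 had -0.29 ± 0.16 in females. In males Col11a1, a minor chain of fibrils, had -0.28 ± 0.16. Striatum markers, with which Col11a1 had an r of 0.762, summed to a median of 739 CPM in these mixture males and 1443 CPM in BPA males. Their part in the difference was not tested. In the same males Nid1 had 0.32 ± 0.09 (edgeR, adjusted p = 0.331), with groups that overlapped through the mixture library at 29.9 CPM. Col5a2 had 0.23 ± 0.10, with every mixture library above every BPA library, and groups did not overlap for 0.89% of all genes. At equal BPA dose, the 150 µg/kg mixture against BPA, 19 and 31 members lay above 0 in females and males, against 51.1% and 50.8% of all genes, and 0 and 2 were past the mark by edgeR, against 2.27% and 4.3%. The medians were -0.01 in females and 0.10 in males, and with 1 library left out they ran from -0.09 (without replicate 1 of the mixture) to 0.12 (without its replicate 2) in females and from 0.07 (without replicate 4 of BPA) to 0.20 (without its replicate 3) in males. Tgfbi was 2.21, 2.74, 2.74, 2.45 and 3.10 CPM in the 5 females of the 150 µg/kg mixture, and its lowest, median and highest values were 1.01, 1.42 and 1.996 CPM in BPA females. These groups did not overlap, which held for 0.256% of all genes, and the log2 difference was 0.86 ± 0.42 (edgeR, adjusted p = 0.9998). Between the mixtures, 150 against 50 µg/kg, 4 of 42 members lay above 0 in females, against 50.1% of all genes, with a median of -0.14, and 19 in males, against 49.8%. With the meningeal covariate 17 lay above 0 in females, with a median of -0.02, and with 1 library left out the median ran from -0.23 without replicate 5 to -0.04 without replicate 3 of the 50 µg/kg mixture. No member was past the mark in either sex by edgeR, against 4.72% and 2.82% of all genes. The lowest p-values were those of Nid1 (-0.22 ± 0.11) and Lamc3 (0.17 ± 0.17) in females and of Sparc (-0.16 ± 0.10) and Col11a1 (0.20 ± 0.15) in males.

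Fitted over every exposure at once in each sex, the slope on licking/grooming, given as log2 per SD of licking/grooming (124 in females, 119 in males), was near 0 for the set. No member had an unadjusted p under 0.05 in either sex by edgeR, against 2.76% of all genes in females and 4.45% in males, and 15 and 14 of 42 slopes were above 0, against 50.2% and 49.9%. The lowest p-values in each direction were those of Tgfbi (0.26 ± 0.15), Fbn1 (0.08 ± 0.05), Abcc9 (-0.05 ± 0.05) and Nid1 (-0.04 ± 0.04) in females, and of Ror1 (0.07 ± 0.06), Lamb1 (0.06 ± 0.05), Pdgfrb (-0.06 ± 0.04) and Nid2 (-0.07 ± 0.06) in males. The slope did not pass the threshold for a difference between the sexes in any member (edgeR, 0 of 42 at an unadjusted p under 0.05, against 2.68% of all genes), with the lowest p for Col6a2 (0.16 ± 0.12, female minus male) and Lama1 (-0.11 ± 0.09). Licking/grooming overlapped among the litters of the 4 exposures: it was 362 ± 106 for BPA, 297 ± 120 for the 50 µg/kg mixture, 310.3 ± 121.8 for the 150 µg/kg mixture and 344 ± 144 for corn oil (SD, n = 6 litters each).

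The slopes within each exposure were another matter in females. Tested jointly for a difference of the 3 exposed slopes from the corn oil slope, 28 of 42 members had an unadjusted p under 0.05, against 6.31% of all genes. None passed the adjusted threshold in the edgeR fit (lowest adjusted p = 0.179). The members were chosen with earlier results of these data known, so these counts are descriptions. Those results had named Lama2, Tgfbi, Ddr2, Cped1, Fkbp10 and Ranbp3l. Members made up 6 of the 10 genes with the lowest p among the 18354 tested, and 15 of the lowest 100. The other genes in the lowest 10 were Fam174b, Etl4, Thbs2 (thrombospondin 2, a matrix glycoprotein) and Foxc2, a transcription factor of the meninges and 1 of the 16 listed meningeal markers. By role, all 3 collagen VI chains were at an unadjusted p under 0.05, 5 of 6 fibrillar collagens, 5 of 6 matrix glycoproteins, 5 of 7 laminins, 3 of 4 small proteoglycans, 3 of 4 of the group of Ddr2, Ror1, Colec12 and Cspg5, and 3 of 4 of the group of Fkbp10, Aldh1a2, Ranbp3l and Cped1. Only Nid2 of the 4 basement membrane collagens and nidogens was among them, and 0 of 4 pericyte genes.

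The direction was shared. Relative to corn oil females, the slope was higher in the 50 µg/kg mixture for 39 of 42 members (49.6% of all genes), lower in BPA for 33, and lower in the 150 µg/kg mixture for 36. Of all genes, 48.8% had a higher slope than oil in BPA and 49.9% in the 150 µg/kg mixture. All 3 directions held together for 30 of 42 members (71.4%), against 14.2% of all genes. The median slope differences from oil were -0.14 for BPA, 0.34 for the 50 µg/kg mixture and -0.27 for the 150 µg/kg mixture, on the log2 scale per SD of licking/grooming. The 3 differences share the oil slope. Members varied together (median r of 0.443), so these counts are not of independent observations.

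**Figure D4:**
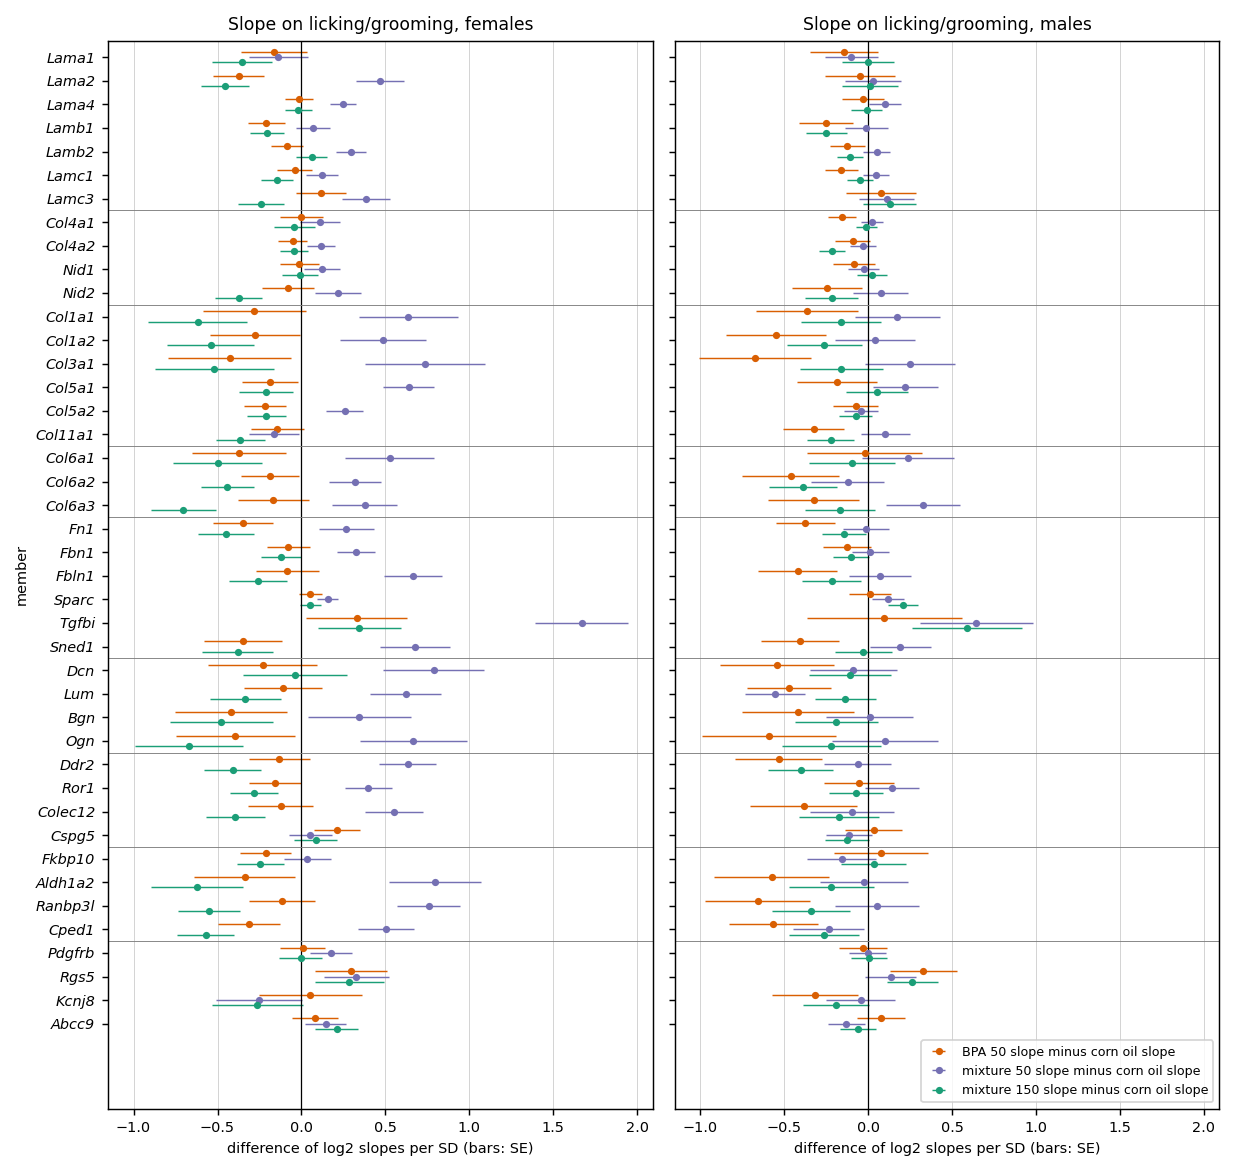
Difference of each member's slope on licking/grooming from the corn oil slope (log2 per SD of licking/grooming; points, bars are the SE) for each exposure, in females (left) and males (right), members grouped by role. In females 39 of 42 points of the 50 µg/kg mixture lie right of 0 and 36 of the 150 µg/kg mixture left of it; in males 24 and 33 do.

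Tgfbi had the lowest joint p among the members (edgeR, adjusted p = 0.179), with slope differences from oil of 0.33 for BPA, 1.67 ± 0.28 for the 50 µg/kg mixture and 0.34 for the 150 µg/kg mixture. In the 6 females of the 50 µg/kg mixture, ordered from the lowest licking/grooming (108) to the highest (424), it was 0.416, 1.20, 0.862, 1.90, 4.85 and 4.66 CPM. The pair of litters with the most licking/grooming held the highest levels of all 22 females. Tgfbi was 2.21, 3.10, 2.74, 2.45 and 2.74 CPM in the same order in the 150 µg/kg mixture, 1.52, 1.01, 1.31, 1.62, 1.996 and 1.24 CPM in BPA, and 2.26, 2.07, 1.67, 1.77 and 1.05 CPM in corn oil. The slope within the 50 µg/kg mixture was 1.40 ± 0.21 log2 per SD of licking/grooming (edgeR, adjusted p = 0.00812), so Tgfbi rose with licking/grooming in these females. It was 1 of 2 genes past the threshold for that slope, 0.0109% of those tested. Its slopes were 0.06 in BPA, 0.08 in the 150 µg/kg mixture and -0.26 in corn oil. The call rests on few libraries: the adjusted p was 0.0599 without replicate 1, 0.0727 without replicate 3 and 0.629 without replicate 5 of the 50 µg/kg mixture, and 0.633 with the meningeal markers as a covariate. It was 0.993 without the library of lowest licking/grooming in each group. Over all alternatives run for it, the slope lay between 1.28 and 1.59 and the adjusted p between 0.00536 and 0.993.

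Lama2 followed (edgeR, adjusted p = 0.179). In order of rising licking/grooming it was 15.4, 24.3, 27.6, 31.1, 46.4 and 38.5 CPM in the 50 µg/kg mixture, 38.4, 38.9, 31.4, 22.7 and 16.5 CPM in the 150 µg/kg mixture and 34.3, 32.6, 29.2, 32.1, 20.6 and 21.9 CPM in BPA, against 28.3, 29.8, 21.1, 25.3 and 37.0 CPM in corn oil. High values thus stood at the high end of licking/grooming in the 50 µg/kg mixture and at the low end in the 150 µg/kg mixture and BPA. Slope differences from oil were -0.37 ± 0.15 for BPA, 0.47 ± 0.14 for the 50 µg/kg mixture and -0.45 ± 0.14 for the 150 µg/kg mixture (SE, log2 per SD).

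Ranbp3l, like Lama2, had its high values at high licking/grooming in the 50 µg/kg mixture and at low licking/grooming in the 150 µg/kg mixture. It was 10.4, 31.9, 31.7, 44.0, 53.7 and 59.5 CPM in the 50 µg/kg mixture, 48.6, 53.3, 33.1, 30.1 and 15.7 CPM in the 150 µg/kg mixture, and between 25.2 and 36.5 CPM in BPA and between 26.8 and 37.7 CPM in corn oil, the first 2 groups in order of rising licking/grooming. The libraries of both mixtures thus reached above and below the whole range of the oil females. Its slope differences were -0.12, 0.76 ± 0.19 and -0.55 ± 0.18 for BPA and the 50 and 150 µg/kg mixtures (edgeR, adjusted p = 0.179 for the joint test).

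Cped1, Ddr2 and Col5a1 completed the 6 members with the lowest joint p. Cped1 was 6.94, 11.6, 11.6, 17.4, 24.1 and 16.4 CPM in the 50 µg/kg mixture and 17.3, 18.4, 11.6, 8.47 and 5.88 CPM in the 150 µg/kg mixture, in order of rising licking/grooming, against 10.2 to 16.9 CPM in corn oil. Ddr2, a receptor tyrosine kinase for fibrillar collagens, was 4.86, 9.42, 9.27, 13.7, 16.3 and 14.8 CPM in the 50 µg/kg mixture and 13.4, 14.2, 10.97, 6.69 and 4.70 CPM in the 150 µg/kg mixture, against 8.31 to 12.2 CPM in corn oil. For both genes the lowest value of 1 mixture came from its lowest licking/grooming and that of the other from its highest. Col5a1, a chain of collagen V, which starts the assembly of collagen I fibrils, had slope differences of -0.19 for BPA, 0.64 ± 0.15 for the 50 µg/kg mixture and -0.21 ± 0.16 for the 150 µg/kg mixture. Its joint test had an adjusted p = 0.229 by edgeR, and those of Cped1 and Ddr2 had an adjusted p = 0.179. Ddr2 had 0.63 ± 0.17 for the 50 µg/kg mixture and -0.41 ± 0.17 for the 150 µg/kg mixture, and Cped1 had 0.50 ± 0.17 and -0.57 ± 0.17.

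**Figure D5:**
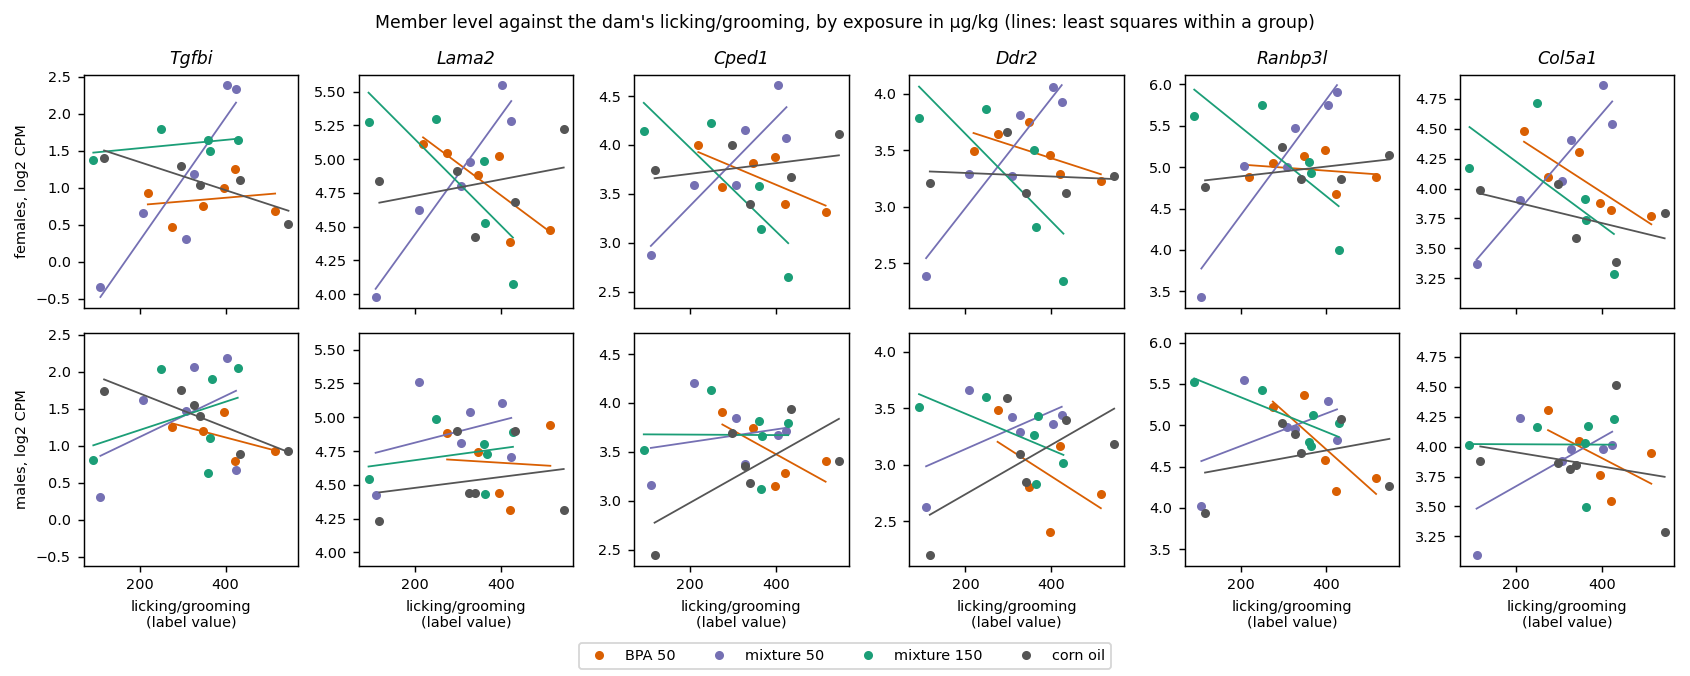
Level of 6 members (log2 CPM) against licking/grooming of the dam in females (upper row) and males (lower row); each point is 1 library, coloured by exposure, with a straight line per exposure. In females the line of the 50 µg/kg mixture climbs and that of the 150 µg/kg mixture descends for Lama2, Cped1, Ddr2, Ranbp3l and Col5a1; Tgfbi climbs in the 50 µg/kg mixture, by 1.40 log2 per SD.

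Read within each exposure, 28 members of 42 had an unadjusted p under 0.05 for the slope in the 50 µg/kg mixture, all with a positive slope, against 5.86% of all genes. In the 150 µg/kg mixture 22 did, all with a negative slope, against 7.24%, and in BPA 4, all negative, against 2.4%. In corn oil 0 of 42 did by edgeR, against 4.13%. Col1a1 had slopes of 0.68 ± 0.24 in the 50 µg/kg mixture and -0.58 ± 0.23 in the 150 µg/kg mixture, and Col6a3, a chain of collagen VI, of 0.48 ± 0.15 and -0.60 ± 0.15. Col4a1, of the basement membrane, had slopes of 0.09 ± 0.09 and -0.06 ± 0.09. A slope within 1 exposure rests on 5 or 6 libraries.

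The meningeal fibroblast markers moved with these slopes. Of the 13 tested, 11 had an unadjusted p under 0.05 for the joint test in females, against 1 of 9 pericyte and smooth muscle markers, 1 of 13 endothelial markers and 1 of 10 neuron markers. Their summed level ran from 122 to 372 CPM in the 50 µg/kg mixture, from 115 to 360 CPM in the 150 µg/kg mixture and from 183 to 305 CPM in BPA females, against 184 to 273 CPM in corn oil. Among females of the 50 µg/kg mixture, the mean log2 CPM of the markers was 2.02, 3.74, 3.21, 3.99, 4.04 and 4.05 in order of rising licking/grooming, and among those of the 150 µg/kg mixture it was 3.76, 3.85, 3.47, 3.01 and 2.12. With that mean as a covariate, added after the data had been seen, 4 of 42 members were at an unadjusted p under 0.05 in place of 28, against 3.65% of all genes in place of 6.31%, and the median slope differences were 0.03, 0.09 and -0.04 for BPA and the 50 and 150 µg/kg mixtures. Without the library of lowest licking/grooming in each group, also added after the data had been seen, 16 members were, against 3.06% of all genes, with medians of -0.18, 0.21 and -0.64. Members that vary with the marker mean, as fibrillar collagens did (median r 0.864), lose much of their own variation with that covariate. The fit with it therefore cannot tell why the slopes differed.

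The female library of lowest licking/grooming in the 50 µg/kg mixture, replicate 5, had the lowest mean over the fibrillar collagens, collagen VI chains and small proteoglycans in its group, 3.40 log2 CPM, and the male of the same litter, replicate 3, also had the lowest of its group, 3.62. Without that female, 16 members were at an unadjusted p under 0.05, against 5.5% of all genes. At the high end of the 150 µg/kg mixture, female replicate 2 had a mean of 3.42 and its male littermate, also replicate 2, had 4.43. In the other direction, DESeq2 called 14 genes at an adjusted p under 0.05 for the joint test, 10 of them members (Lama2, Col5a1, Col6a3, Fbln1, Sned1, Ddr2, Colec12, Aldh1a2, Ranbp3l and Cped1), and edgeR with no filter on low counts called 12, of which 4 were members (Col5a1, Tgfbi, Ddr2 and Cped1). Without replicate 1 of the 150 µg/kg mixture, 7 genes were called, 6 of them members.

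Other genes of the matrix were taken from fixed lists, also chosen with earlier results of these data known. In the female joint test, where 6.31% of all genes were at an unadjusted p under 0.05, so were 8 of 25 genes of collagen making and matrix turnover (lowest p for Loxl2, a collagen cross-linking enzyme), 7 of 30 other matrix glycoproteins and proteoglycans (lowest for Thbs2), 6 of 15 other collagens (lowest for Col13a1) and 5 of 17 genes of TGF-beta and PDGF signalling (lowest for the co-receptor Tgfbr3). It was 2 of 14 other laminins and basement membrane genes (lowest for the collagen IV chain Col4a6) and 1 of 20 matrix receptors (the integrin chain Itgav), all by edgeR, and none passed the adjusted threshold. Against corn oil, at most 2 genes of any of these 6 lists were past the same mark in females and at most 3 in males. Of all genes, 3.63%, 4.85% and 3.08% were in females and 11.3%, 3.47% and 4.09% in males, for BPA, the 50 and the 150 µg/kg mixture in that order.

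In males the joint test gave 1 of 42 members at an unadjusted p under 0.05, against 4.76% of all genes. This was Lum, or lumican, a small proteoglycan of collagen fibrils, with an adjusted p = 0.926 by edgeR and slope differences of -0.47 for BPA, -0.56 for the 50 µg/kg mixture and -0.14 for the 150 µg/kg mixture. In order of rising licking/grooming Lum was 8.38, 11.1, 8.67, 5.39, 6.47 and 4.73 CPM in males of the 50 µg/kg mixture, against 4.01, 6.02, 3.82, 6.61, 5.92 and 7.34 CPM in corn oil males. The 3 litters of lowest licking/grooming held the highest values in the mixture, and the groups overlapped. Next came Col4a2, Col11a1, Ddr2, Col3a1 and Col6a3, all with the same adjusted p = 0.926 by edgeR. None of the members was among the lowest 100 genes. All 3 directions seen in females held for 18 of 42 members (42.9%), against 13.3% of all genes. The medians were -0.21 for BPA, 0.03 for the 50 µg/kg mixture and -0.12 for the 150 µg/kg mixture. Without the library of lowest licking/grooming in each group they were -0.06, -0.03 and -0.03 in that order. With the meningeal covariate they were -0.05, -0.02 and 0.02. These males are largely littermates of the females, with the same licking/grooming values. Within exposures, 2 members in BPA, 1 in each mixture and 0 in corn oil were at an unadjusted p under 0.05 by edgeR, against 2.82%, 3.83%, 10.4% and 3.25% of all genes for BPA, the 50 and 150 µg/kg mixtures and oil. Of the meningeal markers 1 of 12 was past the mark in the male joint test.

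Whether the slope differences themselves differed between females and males was tested over all 45 libraries. The fits over both sexes took littermates as independent libraries, so their p-values leave the shared litter out of account. At an unadjusted p under 0.05 there were 7 members, against 2.42% of all genes: Lum, Lama2, Cped1, Ranbp3l, Col5a2, Ddr2 and Aldh1a2, in rising order of p, each by edgeR with an adjusted p of 0.9998. For Lum the slope difference of the 50 µg/kg mixture from oil was larger by 1.18 in females than in males, and for Lama2 by 0.44. The female pattern is therefore not shown to differ between the sexes at the adjusted threshold. Averaged over exposures, 36 of 42 members were higher in females than in males, against 51% of all genes. Of these, 1 member was at an unadjusted p under 0.05, against 5.19%: Ddr2, with a log2 difference of 0.25 ± 0.12, female minus male (edgeR, adjusted p = 0.889). Tgfbi had the lowest p toward lower values in females, -0.20 ± 0.20. In the same comparison 12 of 13 meningeal fibroblast markers were higher in females (median 0.16), as were 8 of 8 striatum markers (median 0.22) and 8 of 8 ependyma markers (median 0.30), whereas 0 of 9 oligodendrocyte lineage markers were (median -0.12). Their part in the result was not tested. For the exposure effects, the sexes differed at that mark in 1 member for BPA (Fkbp10, above), against 7.12% of all genes, and in 0 for either mixture by edgeR, against 4.79% for 50 and 3.79% for 150 µg/kg. The lowest p-values there were those of Rgs5 (0.51 ± 0.25) and Lum (-0.54 ± 0.35) for the 50 µg/kg mixture, of Fkbp10 (0.31 ± 0.25) and Lum (-0.49 ± 0.36) for the 150 µg/kg mixture and, beside Fkbp10, of Col11a1 (-0.26 ± 0.23) for BPA, as female minus male.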

How the data were processed

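The deposited tables, 1 per sex, hold raw counts of reads per gene, with no normalization by the authors that the values show. Per the submitters' processing notes, cutadapt 1.18, STAR 2.7.3a, SAMtools 1.10 and bedtools 2.27.1 were used with the build mRatBN7.2. Settings, annotation and strand use: not given in the sources used here. Whether reads of overlapping or antisense genes were told apart is therefore not known. The tables' names state that outliers had been removed; which, and by what rule, is not stated. Per the labels, an extraction kit made for fixed, paraffin-embedded samples was used on unfixed tissue. All count columns matched a library (0 unmatched), and the litter was taken from its name.

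Counts were tested within each sex with edgeR 4.0.16 in R 4.3.3 (TMM scaling, filterByExpr with a minimum count of 10 and a minimum total of 15, robust quasi-likelihood F-test) on exposure, and on exposure with licking/grooming and their interaction. The p-values were adjusted by Benjamini-Hochberg over all genes tested, with a threshold of 0.05. Slopes within an exposure come from the interaction fit and were added to the planned tests. Differences between the sexes were tested over all 45 libraries, with littermates taken as independent in the main fit. CPM used TMM factors over the 45 libraries, and log2 CPM a prior count of 2. SE is the edgeR fold change estimate divided by the root of F, and bars and ± on fitted values are SE. Simulated data with known changes were used to test the fits.

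Alternatives were DESeq2 1.42.0, RLE scaling, no filter, voom (limma 3.58.1) with quality weights, the replicate number as a block, only the compared groups, ranked licking/grooming, nest attendance as a covariate, the litter as a random block and each library left out. Samples with the same replicate number had a median correlation of deviations of 0.02 in females and 0.0019 in males, so the numbers do not pair the samples. The members and lists were chosen with earlier results of these data known. Genes are named where they had the lowest p in a direction of a comparison (2 against oil and for slopes, 1 elsewhere), were among the 6 lowest joint p-values, had the highest or lowest mean, or were named in earlier results (Lama2, Tgfbi, Ddr2, Cped1, Fkbp10 and Ranbp3l). Listed genes that are not members are named by lowest p. Figures used matplotlib 3.10.9.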

Additional observations from a re-analysis of the deposited data

Results flagged for a closer look

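In 240 combinations of a named member and a group of 4 to 10 libraries, 16 held a library that stood apart from the rest of its group by Dixon's 95% criterion, and chance flags about 1 in 20. Each value below is the CPM of the library that stood apart, followed by the nearest other library of its group. In females of the 50 µg/kg mixture, replicate 5 was low for Ranbp3l (10.4, nearest 31.7), Fbln1 (6.52, nearest 16.8) and Aldh1a2 (3.05, nearest 10.3), and replicate 3 was high for Rgs5 (10.05, nearest 6.46). The male of the same litter as that replicate 5, replicate 3 of the 50 µg/kg mixture, was low for Ddr2 (5.80, nearest 9.39), Col5a1 (8.17, nearest 14.4) and Col6a3 (6.45, nearest 14.4). In males of the 150 µg/kg mixture, replicate 3 was low for Col5a1 (10.9, nearest 15.8) and replicate 5 for Lama4 (37.4, nearest 43.7). In BPA females, replicate 5 was high for Lama4 (58.6, nearest 49.4) and replicate 4 low for Ror1 (8.84, nearest 12.4). In corn oil females, replicate 5 was high for Lum (9.05, nearest 6.85) and replicate 3 for Col3a1 (25.6, nearest 16.6). In corn oil males, replicate 4 was high for Sparc (613, nearest 487) and low for Col4a2 (57.0, nearest 67.5), and replicate 2 was high for Kcnj8 (5.36, nearest 3.41).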

How the results depend on the processing

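Of the counts recomputed under the alternatives, 1065 stayed within 1.5 times of the main count and 36 did not. The cause of each change below was not tested. For the female joint test, genes and members called were 14 and 10 by DESeq2 and 12 and 4 with no filter, and 0 to 7 genes and 0 to 6 members with 1 library left out. Counts of members at an unadjusted p under 0.05 follow, with the share of all genes in parentheses. They were 28 by DESeq2 (2.4%), with no filter (4.83%), with RLE scaling (6.33%) and with voom (11%). They were 24 with the replicate block (5.13%), 26 with ranked licking/grooming (5.25%) and 27 with nest attendance (5.89%). With the meningeal covariate they were 4 (3.65%), and without the libraries of lowest licking/grooming 16 (3.06%). With 1 library left out they were 16 to 31 (4.71% to 9.19%). In males they were 4 by DESeq2 (2.05%), 6 with voom (7.74%) and 5 with the replicate block (3.42%). For the slope within the 50 µg/kg mixture in females, genes and members called were 7 and 2 with no filter, 0 and 0 with the replicate block, with the meningeal covariate and without the libraries of lowest licking/grooming, and 0 to 12 genes and 0 to 5 members with 1 library left out; this slope was not refitted with DESeq2 or voom. The adjusted p of Tgfbi there was 0.0912 with the replicate block. Elsewhere 1 gene, in place of 0, was called for BPA against oil in females and for the 50 µg/kg mixture against BPA in males with only the compared groups, for the difference of the sexes in the BPA effect with the litter block, and for the female slope by DESeq2, which called 4 in males. Leaving out 1 library gave 0 to 1 genes for the 150 against the 50 µg/kg mixture in females.

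Among single values 2461 kept direction and side of the threshold, 42 passed it, 6 lost it and 27 changed sign. In females, without the libraries of lowest licking/grooming, Lum for the 50 µg/kg mixture against oil was 0.14 and Lamc3 for the 150 against the 50 µg/kg mixture was -0.11; with 1 library left out they ran from -0.27 to 0.041 and from -0.0036 to 0.30. With the meningeal covariate, female slope differences from oil were 0.090 for Ddr2 and 0.15 for Ranbp3l in BPA and 0.021 for Col5a1 in the 150 µg/kg mixture. Male slope differences from oil that changed sign were as follows. With the meningeal covariate they were 0.11 for Col3a1 and 0.079 for Col6a3 in the 150 µg/kg mixture and 0.072 for Col6a3 in BPA. Without the libraries of lowest licking/grooming they were 0.024 for Col4a2 in the 50 µg/kg mixture, and 0.064 for Ddr2 and 0.12 for Col6a3 in BPA. With the replicate block they were 0.064 for Lum and 0.074 for Col3a1 in the 150 µg/kg mixture, and with voom 0.025 for Ddr2 in the 50 µg/kg mixture. With 1 library left out, those in the 50 µg/kg mixture ran from -0.022 to 0.33 for Col11a1, from -0.14 to 0.54 for Col3a1, from -0.061 to 0.63 for Col6a3, from -0.35 to 0.20 for Ddr2 and from -0.072 to 0.049 for Col4a2. Those in the 150 µg/kg mixture ran from -0.52 to 0.0038 for Col11a1, from -0.43 to 0.13 for Col3a1 and from -0.41 to 0.13 for Col6a3. Kcnj8 for the 50 µg/kg mixture against oil in males ran from -0.25 to 0.029. Tgfbi had 3 to 28 counts per library.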
